A study of Mus musculus with 6 samples.

Results

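The annexins are a family of proteins that bind phospholipids when calcium is present, and 10 annexin genes (Anxa1, Anxa2, Anxa3, Anxa4, Anxa5, Anxa6, Anxa7, Anxa8, Anxa10 and Anxa11) were taken by name from the 30315 genes of an RNA-Seq table of mouse renal tubular epithelial cells (TECs). The family was selected on the FPKM values of Anxa8, which was among the largest rises after knockdown of Sox9, a transcription factor of development and of injured tubule cells. The difference of Anxa8 between the groups is therefore given as a description, with no test. The other annexins of the list entered by family name. Anxa9 and Anxa13, also among the 30315 genes, are not part of the 10.

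The cells were primary TECs of C57BL/6 mice in culture, in 6 libraries. They were transfected with an siRNA against Sox9 (siSox9, n = 3) or a control siRNA (siNC, n = 3), and no untransfected or normoxic library was compared here. Every library, controls included, went through hypoxia/reoxygenation (H/R): 12 h after transfection the cells spent 6 h at 1.0% oxygen in medium without glucose, followed by 18 h of reoxygenation in complete medium. The labels do not say that the replicates came from separate animals or cultures, so p-values measure only the spread between these samples, which may be technical.

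In calcium-bound form an annexin lies on the inner face of a membrane that carries acidic phospholipids such as phosphatidylserine, and detaches when calcium falls. Annexins take part in the repair of torn plasma membranes, in the traffic of vesicles and endosomes, and in linking membranes to the actin cytoskeleton, and some act outside the cell on coagulation, plasmin formation and inflammation. Several of them are long known from renal tubule epithelium, where Anxa4 and Anxa5 are abundant and Anxa2 meets the plasminogen system at the cell surface.

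The libraries held 23893197 to 25725743 reads, as recovered from the FPKM values (fragments per kilobase of exon, scaled to the size of the library). Sox9 read 8.93, 8.61 and 9.07 FPKM in siSox9 replicates 1, 2 and 3 against 25.7, 26.5 and 25.6 FPKM in siNC, that is 34.2% of the control mean (limma adjusted p = 7.03e-06). Of the tubule markers, Krt8 and Epcam were abundant (2123 and 132 FPKM as siSox9 means), while the proximal tubule genes Slc34a1, Aqp1 and Cubn stayed under 1 FPKM in every library and Lrp2, also of the proximal tubule, read 2.06 to 2.58 FPKM. The minimum for a test was 1 FPKM on average, reached by 12009 genes, of which 3650 (30.4%) passed the call used throughout, an adjusted p under 0.05 in limma on log2(FPKM + 1), with 1532 (12.8%) higher and 2118 (17.6%) lower in siSox9. Centring each library on its median turned this split to 1959 higher and 1765 lower, and the median log2 fold change of all genes tested from -0.01 to 0.01. In bulk RNA, fewer cells of a type and less RNA per cell cannot be told apart.

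The levels of the family were widely spread. On the FPKM scale, which is per exon length, Anxa5 led in both groups with 451 ± 26.9 FPKM in siNC and 479 ± 24.4 FPKM in siSox9 (mean ± SD, n = 3, as below). In siNC it was followed by Anxa3 (241 FPKM), Anxa2 (238 FPKM), Anxa6 (228 FPKM) and Anxa1 (186 FPKM), and then by Anxa4 (27.5 FPKM), Anxa7 (26.2 FPKM), Anxa11 (6.40 FPKM), Anxa8 (1.76 FPKM) and Anxa10 (0 FPKM). Anxa3 and Anxa2 had overlapping ranges in siNC, and no other neighbours in that order did. In siSox9 the order was that of siNC except that Anxa2 and Anxa3 changed places, and 3 neighbouring pairs overlapped: Anxa2 with Anxa3, Anxa6 with Anxa1, and Anxa4 with Anxa7. The widest steps in siNC between annexins above 0 lay between Anxa1 and Anxa4 (6.78-fold) and between Anxa7 and Anxa11 (4.10-fold), and Anxa5 stood 1.87-fold above the next gene. The step from Anxa11 down to Anxa8 was 3.64-fold in siNC and 1.35-fold in siSox9.

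The 5 highest annexins together held 94.7% to 95.7% of the family's summed FPKM. That sum was 1379, 1408 and 1504 FPKM in siSox9 replicates 1, 2 and 3 and 1357, 1446 and 1414 FPKM in siNC. The groups overlapped in the sum, so the family total did not separate siSox9 from siNC. Each of those 5 genes stood above at least 98.4% of the genes tested in siNC, Anxa4 and Anxa7 above 84.3% and 83.5%, Anxa11 above 45.1% and Anxa8 above 10.7%. Anxa8 made up 0.332% of the family's FPKM in siSox9 and 0.125% in siNC.

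**Figure D1:**
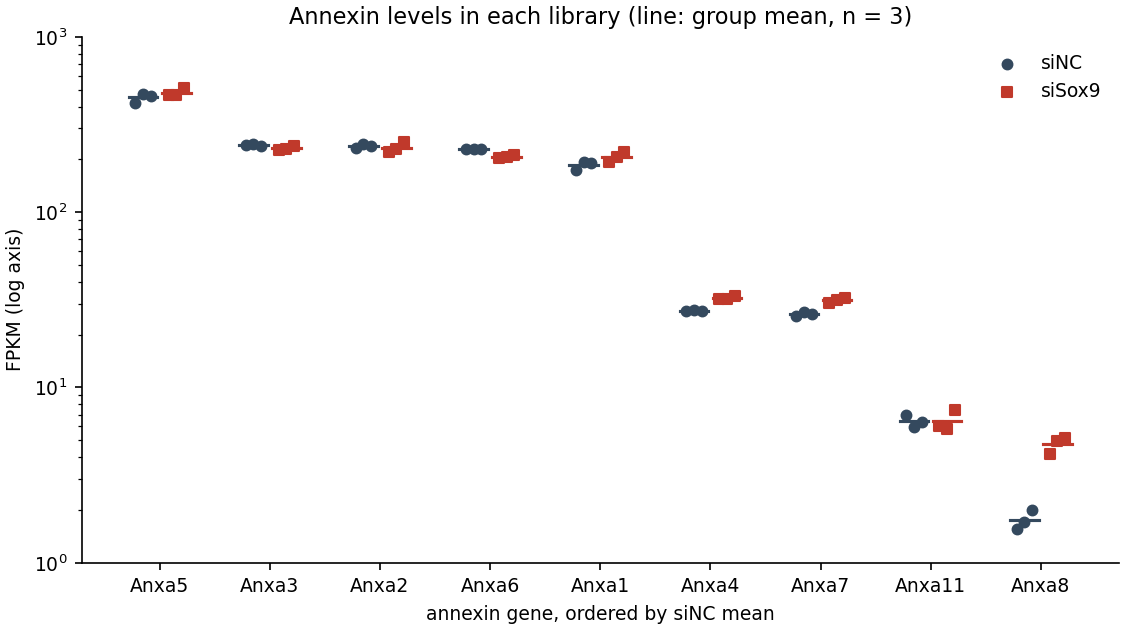
FPKM of the annexins on a log axis, 1 point per library in replicate order with the group mean as a line, siSox9 beside siNC (Anxa10, at or near 0, is not drawn). Anxa8 lies at 4.18 to 5.14 FPKM in siSox9 and 1.56 to 1.99 FPKM in siNC, under every other gene shown, while the 5 most abundant genes lie between 173 and 508 FPKM.

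Anxa8, the member that chose the family, is an annexin of epithelia that is linked to late endosomes and was first described as an anticoagulant. Its gene (ENSMUSG00000021950, GRCm38, chr14:34085981-34100571, plus strand) shares no exon base with another gene. Anxa8 read 4.18, 4.96 and 5.14 FPKM in siSox9 replicates 1, 2 and 3, and 1.56, 1.72 and 1.99 FPKM in siNC. Every siSox9 library lay above every siNC library. The means were 4.76 ± 0.514 and 1.76 ± 0.216 FPKM, a ratio of 2.71, and the log2 fold change of log2(FPKM + 1) was 1.06 (SE 0.09). The pseudocount of 1 pulls the change of a gene this low towards 0, and with a pseudocount of 0.1 it was 1.39.

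The values of Anxa8 rest on few reads. Recovered from the FPKM, they were 202, 237 and 231 reads in siSox9 and 73, 78 and 93 reads in siNC. Anxa8 ranked 6 among the rises of the 12009 genes, between Hist1h2ab, a histone H2A gene (log2 fold change 1.11), and the microRNA gene Mir7211 (log2 fold change 1.05). Of the 25 genes compared with it, those with an absolute log2 fold change of at least 1, the pattern of Lcn2 over the 6 libraries was most like that of Anxa8 (Pearson's r = 0.989 on log2(FPKM + 1)). Lcn2, which encodes the iron-siderophore carrier lipocalin 2 known as a marker of tubule injury, averaged 194 FPKM in siSox9 and 94.7 FPKM in siNC. Next came 4833427F10Rik (r = 0.988) and Gm19541 (r = 0.971). These genes were picked for differing between the same groups, so a high r is built into the choice.

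The promoter window of Anxa8 is shown with those of Anxa4 and Anxa7, the other annexins that were higher in siSox9, as a view of the sequence at the start of the genes that moved upward. Each run of 300 bases is from RefSeq (GRCm38.p6), 250 bases before to 50 bases after the gene start, 5′ to 3′ on the gene's strand. The windows are chr14:34085729-34086028 (plus strand) for Anxa8, chr6:86793535-86793834 (minus strand) for Anxa4 and chr14:20480084-20480383 (minus strand) for Anxa7. Capitals mark matches to the motifs that are listed after the runs, and the Anxa8 window has none.
Anxa8: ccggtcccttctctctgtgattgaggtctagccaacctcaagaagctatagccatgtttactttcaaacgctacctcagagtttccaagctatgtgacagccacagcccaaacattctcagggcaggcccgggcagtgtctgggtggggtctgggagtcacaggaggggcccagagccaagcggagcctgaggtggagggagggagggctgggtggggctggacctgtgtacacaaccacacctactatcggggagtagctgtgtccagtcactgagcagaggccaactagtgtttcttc
Anxa4: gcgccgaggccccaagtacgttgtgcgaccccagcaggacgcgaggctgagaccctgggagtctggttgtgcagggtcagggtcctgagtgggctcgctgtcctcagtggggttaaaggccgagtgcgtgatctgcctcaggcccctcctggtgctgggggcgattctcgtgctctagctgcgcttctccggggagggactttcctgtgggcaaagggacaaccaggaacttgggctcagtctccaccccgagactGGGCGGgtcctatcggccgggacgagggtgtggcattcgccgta
Anxa7: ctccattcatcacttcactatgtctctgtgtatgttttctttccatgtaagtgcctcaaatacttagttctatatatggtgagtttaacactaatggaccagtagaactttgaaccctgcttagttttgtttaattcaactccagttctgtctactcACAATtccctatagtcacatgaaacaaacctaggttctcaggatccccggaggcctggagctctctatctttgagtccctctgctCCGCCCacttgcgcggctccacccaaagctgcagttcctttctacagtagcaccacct

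The motifs searched on both strands were the GC box GGGCGG, the CCAAT box, the TATA box TATAAA, the AP-1 site TGANTCA, and the cores ACAAT and ACAAAG that SOX factors such as SOX9 bind. Each motif was searched separately, and no matches overlapped in the annexin windows. RefSeq windows matched 8 of the 10 annexins (Anxa3 and Anxa6 had none in the table). Positions are those of a match's first base in the printed direction, counted from 1 at the RefSeq start of the gene and from -1 before it. That start differs from the start in the gene coordinates given here by 273 bases for Anxa1, 63 for Anxa2 and 43 for Anxa10. Anxa4 held a GC box at 7, marked in its run. Anxa7 held an ACAAT core at -93 and, on the other strand, a GC box at -8. Among the 8 windows, 2 held ACAAT (Anxa7 and Anxa11), 1 held ACAAAG (Anxa11), 2 held an AP-1 site (Anxa2 and Anxa10), 4 held a GC box, 3 a TATA box and 0 a CCAAT box. Of all 32851 windows, 31.0% held ACAAT, 18.7% ACAAAG, 7.81% the AP-1 site, 35.7% the GC box, 13.6% the TATA box and 37.4% the CCAAT box. The windows of Anxa8 and Anxa7 had 5 and 4 CpG dinucleotides, under the median of 7 over all windows, and that of Anxa4 had 20. A match is a description of the letters and not a bound site, and a window without a match says only that these letters are not in these 300 bases.

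**Figure D2:**
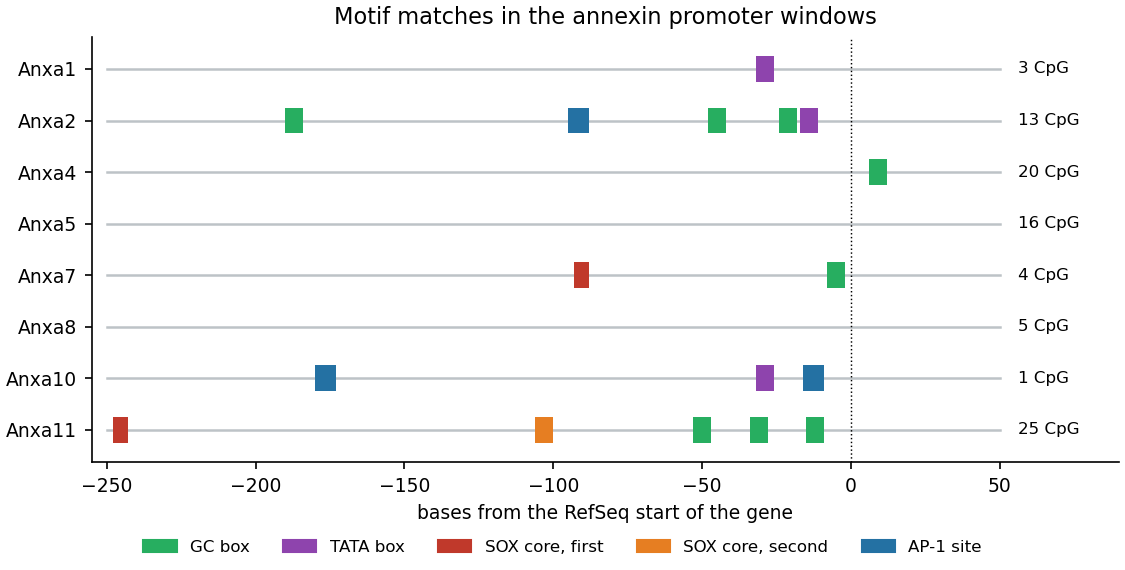
Motif matches in the 300-base promoter windows of the 8 annexins with a RefSeq window, by distance in bases from the RefSeq start, with the number of CpG dinucleotides at the right (SOX core, first: ACAAT, second: ACAAAG). The Anxa8 and Anxa5 rows are empty, Anxa4 has 1 GC box at 7, and Anxa7 has an ACAAT core at -93 and a GC box at -8.

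Beside Anxa8, 8 annexins reached the minimum of 1 FPKM, and 3 of them changed: Anxa4 and Anxa7 rose and Anxa6 fell, while Anxa1, Anxa2, Anxa3, Anxa5 and Anxa11 did not pass. This count of 3 of 8 stands beside 30.4% of all genes tested, and nothing is read from the share. Their log2 fold changes had a median of 0.04, and those of all genes tested a median of -0.01. In 3 of the 8 the groups did not overlap, 2 with siSox9 higher and 1 with siSox9 lower, beside 46.3% of all genes tested (20.2% higher and 26.1% lower).

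Anxa4 is an annexin of secretory and absorptive epithelia that self-associates on membranes. The gene (ENSMUSG00000029994, GRCm38, chr6:86736840-86793584, minus strand) shares 75 exon bases with Gm44036. Anxa4 read 31.9, 31.8 and 33.2 FPKM in siSox9 and 27.1, 27.8 and 27.4 FPKM in siNC. Its 3 siSox9 libraries all lay above the siNC libraries, and the siNC values were within 1 FPKM of each other. The means were 32.3 ± 0.785 and 27.5 ± 0.351 FPKM, a rise of 1.18-fold (log2 fold change 0.23, SE 0.03, limma adjusted p = 0.00199).

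Anxa7, the annexin also called synexin, fuses and aggregates membranes of secretory vesicles. The gene (ENSMUSG00000021814, GRCm38, chr14:20455260-20480133, minus strand) shares no exon base with another gene. Anxa7 read 30.2, 31.6 and 32.6 FPKM in siSox9 and 25.7, 26.8 and 26.2 FPKM in siNC. Again the groups did not overlap, and the rise was close in size to that of Anxa4. The means were 31.5 ± 1.21 and 26.2 ± 0.523 FPKM, 1.2-fold higher in siSox9 (log2 fold change 0.25, SE 0.04, limma adjusted p = 0.00267). Anxa4 and Anxa7 passed in all 14 alternatives tried.

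Anxa6, a large annexin with a doubled core that binds membranes and the actin cytoskeleton and recruits the Ras GTPase-activating protein Rasa1, went the other way. Its gene (ENSMUSG00000018340, GRCm38, chr11:54979108-55033445, minus strand) shares no exon base with another gene. Anxa6 read 204, 205 and 212 FPKM in siSox9 and 228, 229 and 229 FPKM in siNC. The siNC values lay within 1 FPKM of each other, and all siSox9 libraries were below them. The means were 207 ± 4.29 and 228 ± 0.367 FPKM, so that the level in siSox9 was 90.5% of that in siNC (log2 fold change -0.14, SE 0.03, limma adjusted p = 0.00900). With values as TPM, which have an equal sum in every library, the difference was -0.11 and did not pass (limma adjusted p = 0.0975).

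**Figure D3:**
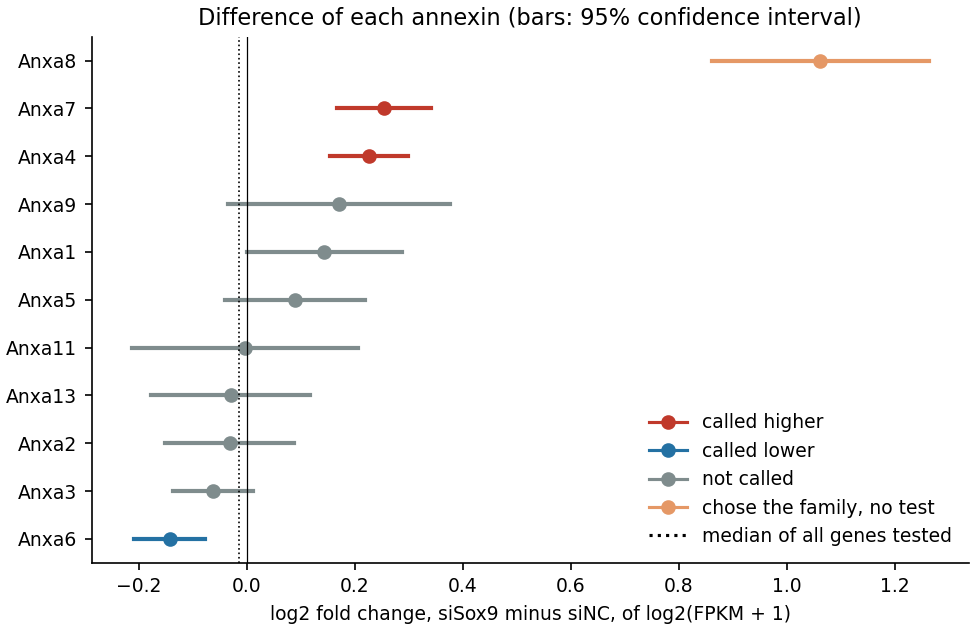
Log2 fold change of log2(FPKM + 1), siSox9 minus siNC, for the tested annexins with Anxa9 and Anxa13, with 95% confidence intervals from limma as bars. The Anxa8 point at 1.06 and its bar are a description with no test. Its difference chose the family, so the distance of the bar from 0 is not support for a rise. Anxa4 (0.23) and Anxa7 (0.25) lie above 0, Anxa6 (-0.14) lies below it, and the other intervals reach 0 or come within 0.01 of it.

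The remaining abundant annexins did not pass the test, and their intervals bound the change. Anxa1, the glucocorticoid-regulated annexin that dampens inflammation through formyl peptide receptors, read 192, 205 and 220 FPKM in siSox9 and 173, 193 and 191 FPKM in siNC. Its difference was 0.14 (95% interval 0.00012 to 0.288, limma adjusted p = 0.119), which passed with TPM values (adjusted p = 0.0359) and with limma voom on the recovered reads (adjusted p = 0.0365). It was 0.0937 without siNC replicate 1 (limma adjusted p = 0.243) and 0.0960 without siSox9 replicate 3 (adjusted p = 0.286). The lowest siSox9 library lay below 1 siNC library. Its gene is ENSMUSG00000024659 (GRCm38, chr19:20373428-20390944, minus strand), with a TATA box match at -32 of its promoter window. That position counts from a RefSeq start 273 bases away from the start in these coordinates. The recovered reads of Anxa1 rest on an exon length fitted to the values, 2608 bases where the annotation gives 2911.

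Anxa2, which joins S100a10 in a complex that serves membrane traffic and plasmin formation, read 220, 229 and 250 FPKM in siSox9 and 231, 246 and 237 FPKM in siNC. The difference was -0.03 (95% interval -0.151 to 0.0875, limma adjusted p = 0.672), and the siNC values lay inside the siSox9 range. The gene (ENSMUSG00000032231, GRCm38, chr9:69453620-69491795, plus strand) shares 98 exon bases with Gm16144 on the other strand, and its window held 3 GC boxes, an AP-1 site at -95 and a TATA box at -17. Anxa3, an annexin with a role in granule fusion, read 225, 230 and 237 FPKM in siSox9 and 243, 244 and 237 FPKM in siNC. The difference was -0.06 (95% interval -0.137 to 0.0110, limma adjusted p = 0.173), with siSox9 replicate 3 just above siNC replicate 3. The gene (ENSMUSG00000029484, GRCm38, chr5:96793339-96845966, plus strand) shares 112 exon bases with Gm42603.

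Anxa5, the phosphatidylserine binder that covers injured and dying membranes, was the most abundant annexin. It read 466, 465 and 508 FPKM in siSox9 and 421, 473 and 458 FPKM in siNC. The difference was 0.09 (95% interval -0.0400 to 0.220, limma adjusted p = 0.261), and it passed only after quantile normalization (0.13, adjusted p = 0.0296). It was 0.0412 without siNC replicate 1 and 0.0482 without siSox9 replicate 3. Its gene is ENSMUSG00000027712 (GRCm38, chr3:36448923-36475894, minus strand), and its values rest on 18558 to 21549 reads a library.

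Anxa11, which binds the EF-hand proteins S100a6 and Pdcd6 and tethers RNA granules to lysosomes, showed no detectable difference. It read 6.05, 5.76 and 7.40 FPKM in siSox9 and 6.94, 5.93 and 6.34 FPKM in siNC. The siSox9 libraries spanned the siNC libraries, with a difference of -0.0032 (95% interval -0.213 to 0.206, limma adjusted p = 0.983). The gene is ENSMUSG00000021866 (GRCm38, chr14:25842156-25886804, plus strand), with 592 to 731 reads a library. The sign changed with the scaling, to 0.02 after median centring. Its values are uncertain because 16.2% of its 50-base words also occur in Anxa11os, Gm2260 or Gm2274, and Anxa11os overlaps it on the other strand by 113 exon bases while the strandedness of the counting is not given in the sources used here.

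Anxa10, an annexin known from stomach and other gut epithelia, was barely detected (ENSMUSG00000031635, GRCm38, chr8:62057042-62123150, minus strand). It was at 0 FPKM in 5 libraries and at 0.0344 FPKM (2 reads) in siSox9 replicate 2. A count of 0 allows up to 3 reads, which is 0.0509 to 0.0548 FPKM in these libraries, so no fold is given. Of the annexin genes outside the 10, Anxa9 read 1.97, 1.52 and 1.70 FPKM in siSox9 and 1.61, 1.26 and 1.40 FPKM in siNC. Anxa13, an annexin of intestinal and renal epithelium, read 1.74, 1.68 and 1.65 FPKM in siSox9 and 1.85, 1.81 and 1.58 FPKM in siNC. Neither passed (limma adjusted p = 0.183 and 0.756), and both groups overlapped in each gene. Both rest on few reads, 63 to 105 a library for Anxa9 and 36 to 42 for Anxa13.

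One library stood out in the annexin values. Within siSox9, replicate 3 had the highest value in 9 of the 9 tested annexins, with FPKM and with TPM alike. It was the highest of the siSox9 libraries in 33.8% of all genes tested and the lowest in 39.5%. Some abundant genes outside the family were also highest in replicate 3 and others were not. How common this was among abundant genes was not tested. Krt8 read 2098, 2081 and 2190 FPKM in siSox9 replicates 1, 2 and 3, and S100a11 1435, 1444 and 1542 FPKM. Cdh1, also abundant, was instead lowest in replicate 3 (166, 160 and 156 FPKM). Within siNC, replicate 1 had the lowest value in 7 of the 9, against 33.8% of all genes, but not with TPM, where it had the highest value in 6 of the 9. Without siSox9 replicate 3 the log2 fold change was 1.01 for Anxa8, 0.21 for Anxa4, 0.23 for Anxa7 and -0.16 for Anxa6, and Anxa4, Anxa7 and Anxa6 still passed.

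**Figure D4:**
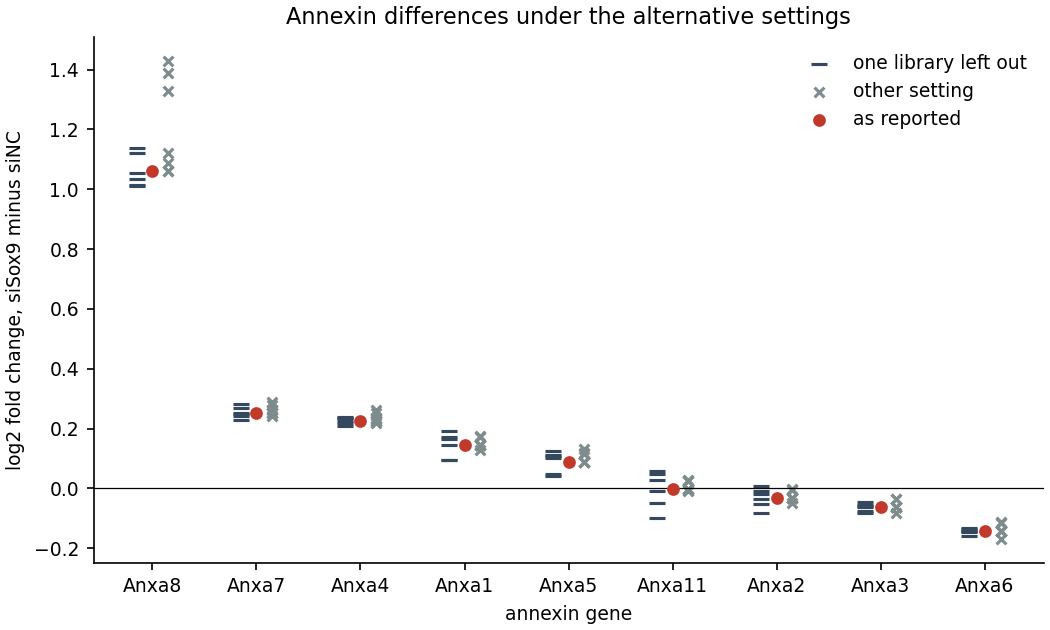
Log2 fold change, siSox9 minus siNC, of each tested annexin in the analysis as reported and in each alternative, 1 point per alternative. Anxa8 spans 1.01 to 1.43, Anxa4 and Anxa7 stay above 0 and Anxa6 stays below 0 throughout, and Anxa2 and Anxa11 cross 0.

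The genes known to work with annexins were described from 34 genes in 6 lists by role. Of these, 27 were tested and 10 changed, 7 higher and 3 lower, with a median log2 fold change of 0.03 beside -0.01 over all genes. These counts, and those of the single lists, stand beside 30.4% of all genes tested that changed, 12.8% higher and 17.6% lower, and nothing is read from a list's share. The remaining genes were Fpr3, which was not listed, and S100a4, Trim72, Plg, Fpr1, Fpr2 and Xkr8, which averaged under 1 FPKM. All partner genes were compared in the same 6 libraries as the annexins.

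S100 proteins are small EF-hand dimers that bind the annexin tail. S100a6, a partner of Anxa11 among others, rose from 322 ± 14.9 FPKM in siNC to 418 ± 15.3 FPKM in siSox9 (log2 fold change 0.37, limma adjusted p = 0.00124). Ahnak, a very large scaffold protein that meets the Anxa2 and S100a10 complex at the membrane, rose from 42.2 to 54.2 FPKM (0.35, adjusted p = 0.000678). S100a10 itself, the partner of Anxa2, read 162, 169 and 180 FPKM in siSox9 and 179, 206 and 194 FPKM in siNC and did not pass (-0.18, adjusted p = 0.0609). S100a11, the partner of Anxa1, averaged 1474 FPKM in siSox9 and 1459 FPKM in siNC. In this list of 7 genes, 6 were tested, 2 rose and 0 fell, beside 12.8% and 17.6% of all genes.

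Of the membrane repair genes, 9 of 10 were tested, 1 rose and 2 fell, where 30.4% of all genes tested changed. The calpains, calcium-activated proteases that cleave annexins and membrane skeleton in repair, went down in both catalytic subunits. Capn2 read 48.0, 46.9 and 48.2 FPKM in siSox9 and 82.9, 81.9 and 83.8 FPKM in siNC, a large and tightly repeated difference (log2 fold change -0.78, limma adjusted p = 3.33e-05). Capn1 fell by 0.27 on the log2 scale (adjusted p = 0.00274), and Capns1, their shared small subunit, did not pass (163 against 159 FPKM). Cav1, the caveolar coat protein, rose from 74.8 to 99.2 FPKM (0.40, adjusted p = 0.000272). Dysf and Myof, the ferlins of membrane patching, did not pass, with means of 13.7 and 81.4 FPKM in siSox9 and 14.2 and 77.2 FPKM in siNC.

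Plasminogen activation, which Anxa2 assists at the cell surface, had 3 tested genes, of which 2 rose and 0 fell, beside 12.8% and 17.6% of all genes. Plat, the tissue-type activator, rose from 16.3 to 19.3 FPKM (log2 fold change 0.23, limma adjusted p = 0.00327), and Plaur, the urokinase receptor, from 69.9 to 79.1 FPKM (0.18, adjusted p = 0.0134). The urokinase gene Plau was at 680 FPKM in siSox9 and 683 FPKM in siNC.

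The other lists held 3 calls. Rasa1, the partner of Anxa6, rose from 11.5 to 13.3 FPKM (log2 fold change 0.20, limma adjusted p = 0.00458), while Cd63, the late endosomal tetraspanin that is a partner of Anxa8, averaged 102 FPKM in siSox9 and 99.7 FPKM in siNC. Of the genes that move phosphatidylserine across the membrane, Tmem30a, the shared subunit of flippases, rose (0.14, adjusted p = 0.0164) and the flippase Atp8a1 fell from 2.03 to 1.47 FPKM (-0.29, adjusted p = 0.00830), and 3 others did not pass. Pla2g4a, the phospholipase that Anxa1 is known to inhibit, was the single tested gene of the Anxa1 list and did not pass.

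**Figure D5:**
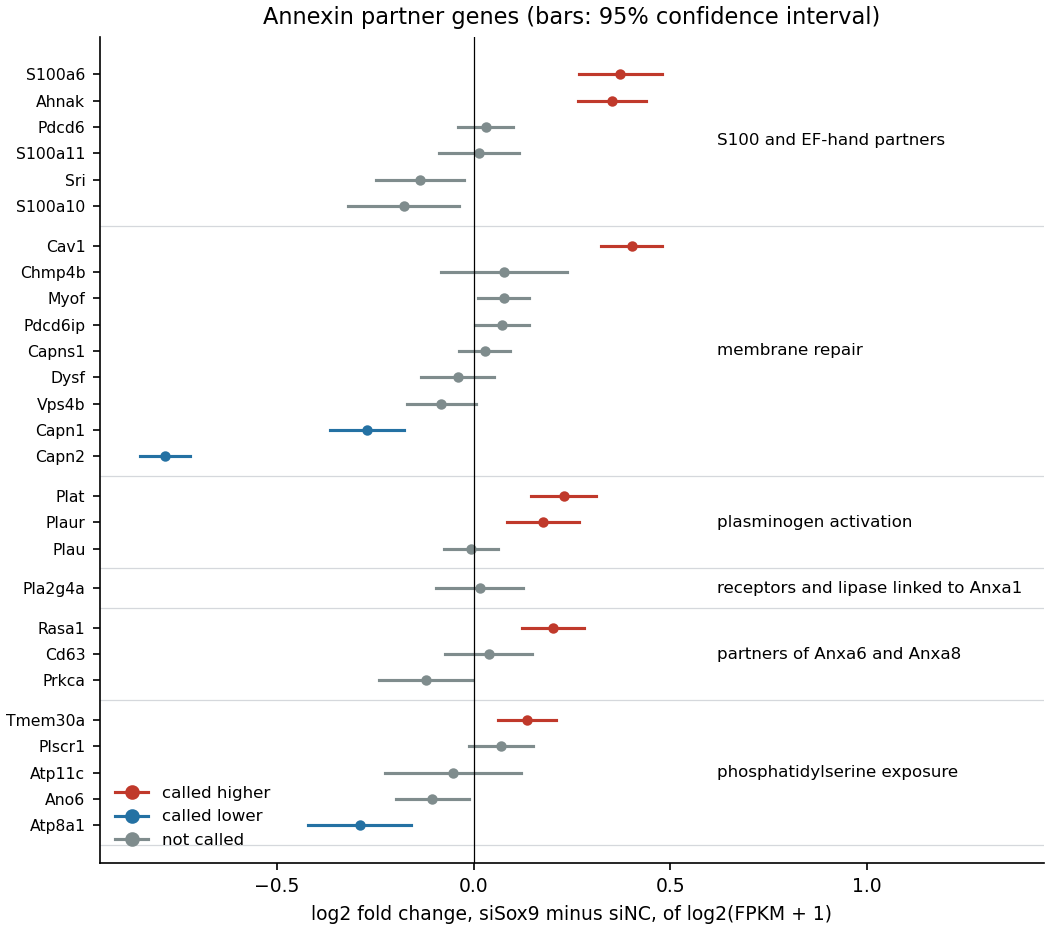
Log2 fold change of log2(FPKM + 1), siSox9 minus siNC, of the 27 tested partner genes in 6 lists by role, with 95% confidence intervals as bars and colour for the call. Capn2 at -0.78 stands lowest and Cav1 at 0.40 highest, and 17 genes are not called.

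Beside the annexins, the deposited annotation names 44 genes under calcium-dependent phospholipid binding, and 29 of them were under the minimum. The names of 16 begin with Syt (synaptotagmins and synaptotagmin-like proteins). Dysf and Pla2g4a, both tested, are also in the partner lists. The annotation was taken as deposited, and binding by the products was not tested. It also covers Anxa11os and Gm2260, which share 50-base words with Anxa11. Gm2260 was among the 15 tested and did not pass. Of the 15 tested, 2 rose and 3 fell, beside 12.8% higher and 17.6% lower of all genes tested, with a median log2 fold change of 0.00. Syt8, a synaptotagmin, rose from 11.6 to 14.9 FPKM (0.33, limma adjusted p = 0.0183), and so did Ccdc71 (0.16, adjusted p = 0.0242). Sytl5 (-0.27), Syt17 (-0.24) and Sytl2 (-0.17), synaptotagmins or the related Rab27 effectors of vesicle docking, fell (limma adjusted p = 0.0106, 0.0334 and 0.0125). The calls of this list were unstable, at 2 to 6 over the alternatives.

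Markers of other cell types were compared because annexins are also expressed in leukocytes, fibroblasts and endothelium. The 7 fibroblast genes summed to 6.45 to 7.95 FPKM in siSox9 and 7.99 to 9.09 FPKM in siNC, and the 5 endothelial genes to 2.91 to 3.10 FPKM and 3.22 to 4.12 FPKM. Of the fibroblast genes Col1a1 made up most of the sum, at 4.99 to 7.09 FPKM over the 6 libraries, Lum was not listed and Dcn read at most 0.0266 FPKM. Of the endothelial genes Cdh5 averaged 1.16 FPKM in siSox9 and 1.37 FPKM in siNC, and Emcn 0.664 and 1.08 FPKM without overlap of the groups. Pecam1, at 0.570 and 0.677 FPKM, stayed under 1 FPKM in every library and its groups did not overlap either. Kdr (0.509 and 0.418 FPKM) and Tek (0.122 and 0.0889 FPKM) went the other way, with overlapping groups. Only Cdh5 reached the minimum for a test, and it did not pass. The 7 leukocyte genes summed to 146 to 163 FPKM in siSox9 and 144 to 146 FPKM in siNC. Among them Lyz2, lysozyme, rose from 71.9 to 83.4 FPKM (limma adjusted p = 0.0175). C1qa averaged 38.1 FPKM in siSox9 and 42.0 FPKM in siNC, Cd68 11.8 and 10.9 FPKM, and Csf1r 9.38 and 9.66 FPKM. Cd14 averaged 8.37 and 7.87 FPKM, and Adgre1 2.43 and 2.22 FPKM. Of these only Lyz2 passed, and the pan-leukocyte gene Ptprc was under 1 FPKM in every library. The 5 podocyte genes summed to 12.5 to 13.9 FPKM in siSox9 and 18.8 to 19.5 FPKM in siNC, mainly from Podxl and Synpo, which fell, with Nphs1 at 0 FPKM in every library. The 10 tubule genes summed to 3758 to 3916 FPKM in siSox9 and 3595 to 3797 FPKM in siNC, mostly from Krt8 and Krt18, and 1 of the 7 tested changed: Cdh16, a kidney cadherin, rose from 101 to 130 FPKM (log2 fold change 0.36, limma adjusted p = 0.000307). The calls among the markers stand beside 30.4% of all genes tested that changed, 12.8% higher and 17.6% lower. Groups without overlap made up 46.3% of all genes tested, a share that does not cover Emcn and Pecam1, which were under the minimum. Col3a1, Pdgfrb and Wt1, also under the minimum, were lower in siSox9 without overlap too. Nothing is read from either share. The part of these cell types in the annexin values was not tested.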

How the data were processed

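RNA-Seq of 6 libraries of primary mouse TECs was used. The authors deposited FPKM per gene and library. The submitters' processing notes name HISAT2 2.1.0, Bowtie2 2.2.3, TopHat2 and the build mm9, while the positions in the table were identical to GRCm38 for 93.3% of the 30246 genes found in GENCODE M21, so positions are given on GRCm38. The read counter, its annotation and its strand setting are not given in the sources used here. Columns were matched to groups by siRNA name: the columns that are not siNC were taken as siSox9, the only other siRNA in the labels.

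The test was limma 3.58.1 (R 4.3.3; lmFit, then eBayes with a trend), run two-sided on log2(FPKM + 1) for the 12009 genes that averaged 1 FPKM or more, with Benjamini-Hochberg adjustment over all of them and no replicate block, since the study's statistics name an unpaired test. Reads were recovered from FPKM with exon lengths and were whole within 0.02 reads in all 6 libraries for 27948 genes (92.4% of those in GENCODE M21). For 1584 further genes, Anxa1 and Anxa13 among them, the length was fitted instead. It was the length nearest to the annotated one, within 50%, at which all 6 values were whole. The recovered reads served for depth and for 1 alternative. Fold changes on the log2(FPKM + 1) scale understate changes of low genes, and reads without molecular identifiers give counting error only. Promoter windows are from RefSeq, GRCm38.p6, the window nearest to each gene's start where there were several. Tables and figures were made with Python 3.11.15. The limma step was tested on simulated data.

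The members and gene lists were chosen with earlier results of these data known, and 1 gene of the partner lists is not reported here. Named were all annexins, Sox9, every partner gene called or under the minimum, the 3 largest called rises and falls among the annotated genes, the 3 genes most like Anxa8, and its neighbours in the order of rises. S100a10, S100a11, Capns1, Dysf, Myof, Plau, Cd63, Pla2g4a were added for context after their values were seen, as were the cell type markers named. Annotated positions and exon overlaps were taken from GENCODE M21.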

Additional observations from a re-analysis of the deposited data

How the results depend on the processing

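The annexins called beside Anxa8 numbered 3 or 4 in all 14 alternatives. With a replicate block the count was 4, with Anxa1 added (limma adjusted p = 0.0349), and 3262 genes passed in the whole table. Equal replicate numbers did not deviate together (correlations 0.0649, -0.0504 and 0.00784, with 1 of 3 siSox9 libraries correlating best with its own number), so the numbers are not taken as pairs. The whole-table count of 3650 ranged from 2424 to 3654 when 1 library was left out, the lowest without siSox9 replicate 2, and from 2549 to 4237 otherwise. The split into higher and lower calls was 1959 and 1765 with median-centred values, 1812 and 1797 with quantile normalization. The partner genes called, 10 as reported, numbered 8 to 13 when 1 library was left out and 9 to 13 otherwise. Their split, 7 higher and 3 lower as reported, was 9 and 3 with median-centred values and 6 and 5 with quantile normalization. With limma voom it was 7 and 6. The annotated phospholipid-binding genes called fell from 5 to 3 with a minimum of 5 FPKM, to 2 with no filter and to 3 with TPM, and ranged from 2 to 4 when 1 library was left out. Those left-out libraries that moved the count by over 1.5 times were siNC replicates 1 and 2 (3 and 2 genes) and siSox9 replicates 2 and 3 (3 and 3 genes). Anxa2 turned to 0.00675 without siSox9 replicate 1, with a range of -0.0828 to 0.00675 over the left-out libraries. Anxa11 turned to 0.0234 with median centring, 0.0278 with quantile normalization and 0.0239 with TPM, and ranged from -0.0973 to 0.0591 over the left-out libraries, above 0 without siNC replicate 1 (0.0483), siSox9 replicate 1 (0.0286) or siSox9 replicate 2 (0.0591). Neither passed the test in any of these. The log2 fold change of Anxa8 was 1.43 with limma voom on recovered reads, 1.39 with a pseudocount of 0.1 and 1.33 with TPM, and 1.01 to 1.14 when 1 library was left out. A minimum of 5 FPKM leaves Anxa8 out. Sox9 stayed between -1.55 and -1.42. The causes were not tested. Depth limits Anxa8, with 73 to 237 reads, and Anxa10, with 0 to 2 reads. It also limits Anxa9, with 63 to 105 reads, and Anxa13, with 36 to 42 reads.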
